A study of Mus musculus with 36 samples.

Results

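Diazepam (DZP) was compared with vehicle in the cerebral cortex of mice, on 3 DZP arrays and 3 vehicle (Ctrl) arrays of 18 in the series, each read by an Affymetrix Mouse Transcriptome Array 1.0. The mice were male C57BL/6 animals of 8 weeks, injected intraperitoneally at hours 8 and 18 for 10 days with DZP, labelled as 5 mg/ml, or with INTRALIPID, the fat emulsion that all Ctrl mice received. The methods of the study give the dose per body weight and another second hour. Hippocampus and amygdala make up the remaining 12 arrays, and 3 DZP mice and 3 Ctrl mice were used. The labels do not tell which arrays of different regions are of one mouse. The cortex was punched from slices and holds all of its cell types, so fewer cells of a type and less RNA per cell cannot be told apart. Both groups were anesthetized with a mixture that holds midazolam, another benzodiazepine, and perfused before the tissue was taken. All non-control transcript clusters that carry a single gene symbol in the array annotation are described, which are 30638 of 65956 clusters. They stand for 30098 genes, of which 18535 are protein coding.

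DZP is a benzodiazepine. It binds the GABA-A receptor, a chloride channel of inhibitory synapses, and raises the response of this channel to GABA without opening it alone. Cortical GABA is made by interneurons, which are divided by the peptides and proteins they carry, such as somatostatin, neuropeptide Y, parvalbumin and vasoactive intestinal peptide. A second class of benzodiazepine-binding proteins lies outside the synapse, with the mitochondrial translocator protein as its best known member.

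The deposited values are log2 signal intensities, and a difference of 1 on this scale is a doubling of signal. Array medians over all clusters lay between 5.87 and 5.92 in DZP cortex and between 5.89 and 5.95 in Ctrl cortex. Over all clusters, DZP arrays correlated with each other with r of 0.9955 to 0.9964, Ctrl arrays with r of 0.9940 to 0.9964 and arrays of different treatment with r of 0.9917 to 0.9965. Principal components were taken over the one-symbol clusters at or above the median level of all clusters, and the first held 42.5% of the variance. On it, DZP arrays 1, 2 and 3 scored 1.63, 13.46 and 15.61, and Ctrl arrays 1, 2 and 3 scored -19.45, -4.30 and -6.95. DZP array 1 was thus the DZP array nearest to the Ctrl arrays, and Ctrl array 1 the Ctrl array farthest from the DZP arrays. The 10 measured excitatory neuron markers of the cortex ranged from 6.69 to 14.40 over the 6 arrays. The brightest, Slc17a7, the vesicular glutamate transporter of cortical neurons, lay between 14.24 and 14.40 in DZP and between 14.13 and 14.27 in Ctrl. The dimmest, Emx1, lay between 6.69 and 6.96 in DZP and between 6.81 and 6.93 in Ctrl. The choroid plexus marker Ttr lay at 6.49 to 6.73 in DZP and 6.38 to 6.59 in Ctrl, and the mean over 6 striatal markers was 7.11 to 7.38 in DZP and 7.15 to 7.23 in Ctrl.

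Few genes passed the adjusted test in the cortex. By limma, with p-values adjusted over all 65956 clusters, 4 clusters were called higher in DZP cortex (0.00606% of those tested) and 20 lower (0.0303%), and 22 of these 24 carry no gene symbol. The called one-symbol clusters, 2 of 30638 (0.00653%), were both lower in DZP: neuropeptide Y (Npy) and the RAR-related orphan receptor beta (Rorb). The limits the study set were a p below 0.05 without adjustment and a difference of 1.5-fold or more. With these limits applied to the limma fit, 87 one-symbol clusters were higher (0.284%) and 137 lower (0.447%). Counted once per gene, by its brightest cluster, 13 coding genes were higher and 20 lower, and 23 noncoding genes were higher and 3 lower. The limits are a selection without adjustment for the number of tests, so the genes they select are described below as higher or lower, with their adjusted p. The study also measured Npy, Crhbp, Fabp7, Lyz2, Ifitm3, Selp, Vwf and Lcn2 by quantitative reverse transcription PCR. By that method it reports an apparent change for Lcn2 only.

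**Figure D1:**
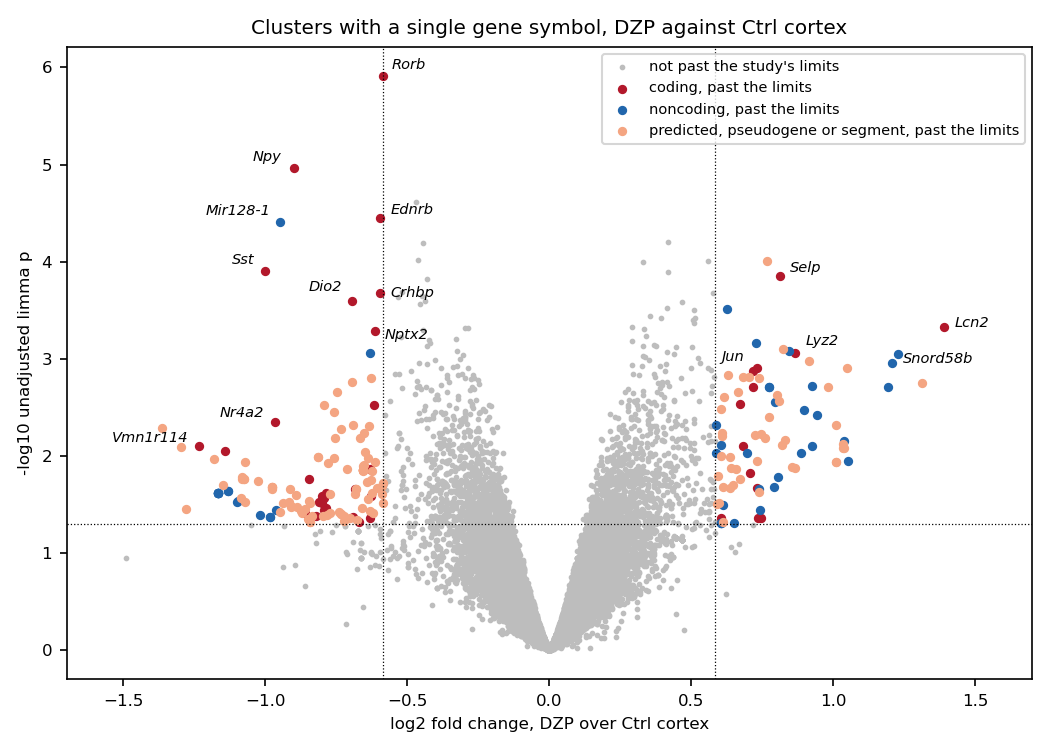
Log2 fold change of DZP over Ctrl cortex (x axis) against the negative log10 of the unadjusted limma p (y axis) for the 30638 one-symbol clusters, with the study's limits dotted. Rorb and Npy are the highest points, both on the lower side, and noncoding RNA (blue) has 29 clusters past the limits on the higher side and 17 on the lower side. Of these 17 clusters, 15 belong to the gene Orly. Counted once per gene, 23 noncoding genes are higher and 3 lower.

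Npy encodes a peptide that is released by a part of the GABAergic interneurons and dampens excitatory transmission. Its signal intensity was 12.68, 12.28 and 12.06 in DZP arrays 1, 2 and 3, against 13.05, 13.34 and 13.33 in Ctrl arrays. All DZP arrays lay below all Ctrl arrays, with DZP array 1 the nearest to them. Npy fell by 0.90 on the log2 scale (SE 0.142, adjusted p = 0.0338, limma). At the exon level, where the same arrays are read per exon part or exon junction, 5 of its 7 probe sets lay below in every DZP array and none above. Of all 580167 exon-level probe sets with a single symbol, 6.22% lay below in every DZP array and 6.42% above. The adjusted p of Npy rose above 0.05 when any array but DZP array 1 was left out (0.0659 to 0.2012) and when each array was centred on its median (0.0596). It was 0.308 with the 6 cortex arrays alone and 0.554 by the methods' t-test, and the call held in 6 of 15 alternatives.

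Somatostatin (Sst) encodes the peptide of an interneuron class that targets dendrites. Its signal intensity was 14.52, 14.33 and 14.31 in DZP arrays and 15.31, 15.56 and 15.30 in Ctrl arrays. The groups were separated by more than their own ranges. The log2 fold change was -1.001 (SE 0.198), and the adjusted p of 0.1105 by limma did not pass. All 3 exon-level probe sets of Sst lay below in every DZP array, with log2 fold changes of -1.11 to -0.70.

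The corticotropin-releasing hormone-binding protein (Crhbp), which holds CRH in an inactive complex and is made by somatostatin interneurons, had 8.28, 7.97 and 8.12 in DZP arrays and 8.58, 8.81 and 8.78 in Ctrl arrays. Its log2 fold change was -0.60 (SE 0.124, adjusted p = 0.1467, limma), and 8 of its 15 exon-level probe sets lay below in every DZP array, with a lower mean in all 15. Cortistatin (Cort), the peptide closest to somatostatin, had 6.22, 6.26 and 6.27 in DZP arrays and 6.53, 6.56 and 6.49 in Ctrl arrays, again without overlap (log2 fold change -0.27, adjusted p = 0.3666).

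In a list of 32 interneuron and peptide genes, the DZP mean was the lower for 24 and the higher for 8, with a median log2 fold change of -0.121, against 0.003 over all one-symbol clusters. In the whole list, 10 genes lay below in every DZP array and 0 above, where 7.06% of all one-symbol clusters lay below and 8.71% above. These shares also stand beside the like counts of gene lists and families in the paragraphs that follow. The 3 genes of the list past the study's limits were Npy, Sst and Crhbp. The enzymes of GABA synthesis were also lower without passing: Gad1, the larger form of glutamate decarboxylase, had 11.95, 11.94 and 11.80 in DZP arrays and 12.22, 12.45 and 12.37 in Ctrl arrays (log2 fold change -0.45, adjusted p = 0.3892). Gad2, which encodes the form at the synaptic terminal, had 10.51, 10.44 and 10.26 in DZP arrays and 10.64, 10.78 and 10.76 in Ctrl arrays (-0.32, adjusted p = 0.7904). Other interneuron markers overlapped between the groups: Lhx6, a transcription factor of parvalbumin and somatostatin interneurons, had a log2 fold change of -0.003, the vesicular GABA transporter Slc32a1 had -0.13, and Pvalb had -0.29. The peptides of other interneurons, Vip at -0.08 and Cck at 0.04, did not separate the groups either. The list was chosen with earlier results of these arrays known, so its direction is not independent evidence.

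**Figure D2:**
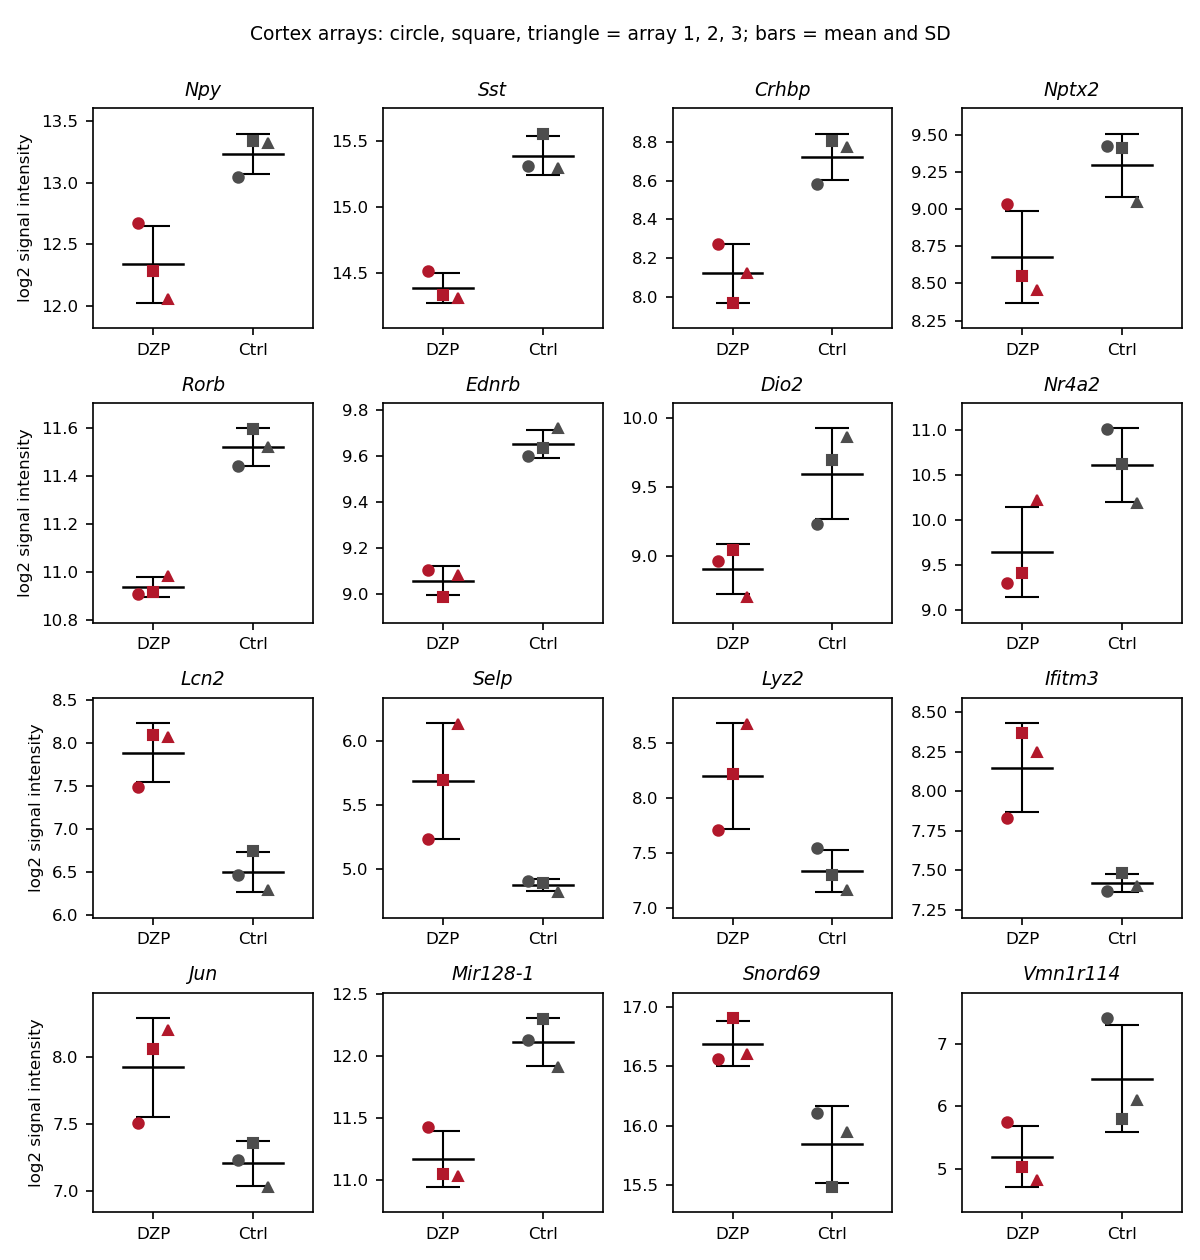
Log2 signal intensity (y axis) of 16 genes in the 3 DZP arrays (left, red) and the 3 Ctrl arrays (right, grey), with the mean and SD as bars and arrays 1, 2 and 3 as circle, square and triangle. The groups are apart in every panel but Nr4a2, and DZP array 1 is the DZP array nearest to Ctrl for the 5 higher coding genes in the panels Lcn2 to Jun.

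Rorb, a nuclear receptor that marks layer 4 neurons of sensory cortex, is measured by a pair of clusters with its symbol alone. In the cluster that was called, DZP arrays had 10.91, 10.92 and 10.98 and Ctrl arrays had 11.44, 11.60 and 11.52. The spread within each group was small beside the distance between them, and Rorb fell by 0.585 on the log2 scale (SE 0.077, adjusted p = 0.0180, limma). The brighter cluster of Rorb had 11.97, 12.05 and 12.02 in DZP arrays and 12.39, 12.51 and 12.42 in Ctrl arrays (log2 fold change -0.42, adjusted p = 0.2279). At the exon level, 20 of 30 probe sets lay below in every DZP array and 0 above. The effect on Rorb in the cortex, minus the mean effect in hippocampus and amygdala, was -0.57 (adjusted p = 0.1846, limma), with log2 fold changes of 0.04 and -0.07 in those regions. The call was lost without Ctrl array 2 (adjusted p = 0.1434) and without DZP array 1 or 2 (0.0599 and 0.0677). It was also lost with each array centred on its median (0.0654), with the 6 cortex arrays alone (0.2075) and by the methods' t-test (0.4203), and held in 9 of 16 alternatives.

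Of 34 listed genes of cortical layers and projection neurons, 16 had a higher and 18 a lower mean, with a median of -0.016 that was 0.009 with each array centred on its median. In this list 2 genes lay above and 3 below in every DZP array, against 8.71% above and 7.06% below over all one-symbol clusters. Nr4a2, described with the activity-regulated genes, was lower past the study's limits. In the brightest cluster of the related receptor Rora, signal was 11.18, 11.32 and 11.26 in DZP arrays and 11.45, 11.86 and 11.70 in Ctrl arrays (log2 fold change -0.42, adjusted p = 0.6159). Tshz2, a transcription factor of deep-layer neurons, had 9.13, 8.94 and 8.72 in DZP arrays and 8.33, 8.15 and 8.50 in Ctrl arrays, which is higher without overlap in its brighter cluster (0.60, adjusted p = 0.6179), while its dimmer cluster had a log2 fold change of 0.13 with overlapping groups. Deep-layer Fezf2 at 0.06, Tle4 at 0.07 and Bcl11b at 0.10, and upper-layer Cux2 at -0.07, lay within the spread of the arrays.

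The genes of the receptor that DZP binds differed little. Of 19 listed GABA-A receptor subunit genes, 16 had a one-symbol cluster. Of these 16, 0 passed the adjusted test or the study's limits. The mean was lower for 11 and higher for 5, with a median log2 fold change of -0.047. In every DZP array 2 subunits lay above and 3 below, and 1 and 0 with each array centred on its median. Over all one-symbol clusters, 8.71% lay above and 7.06% below without this centring. Only 9 of the 16 subunit genes lay at or above the median level of all clusters. Of these 9, 7 had a lower and 2 a higher mean (median -0.087). Gabra5, the alpha subunit of extrasynaptic receptors, had the largest difference, with 12.98, 13.17 and 13.07 in DZP arrays and 12.83, 12.64 and 12.87 in Ctrl arrays (log2 fold change 0.29, SE 0.103, adjusted p = 0.4955, limma). Its DZP arrays all lay above its Ctrl arrays. Gabrb2, the most widespread beta subunit, had 14.14, 14.17 and 14.04 in DZP arrays and 14.23, 14.35 and 14.32 in Ctrl arrays, with all DZP arrays below (-0.19, adjusted p = 0.6672), and Gabra4 and Gabrg1 were also lower in every DZP array (-0.13 and -0.20). Of 11 measured benzodiazepine-binding and neurosteroid genes, 0 separated the groups in either direction, and the translocator protein Tspo had a log2 fold change of -0.05. That list was dim, with a median signal of 5.66, and only 4 of its genes lay at or above the median level of all clusters. Of 22 glutamate receptor genes, 1 lay above and 1 below in every DZP array, with changes between -0.149 and 0.101. Among voltage-gated potassium channels, 22 of 30 had a lower mean and 5 lay below in every DZP array, led by Kcnq3, a subunit of the M-current, with 12.63, 12.72 and 12.74 in DZP arrays and 12.99, 13.01 and 13.003 in Ctrl arrays (-0.30, adjusted p = 0.2624).

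Genes that follow neuronal activity differed in both directions. Of 39 listed, 26 had a lower and 13 a higher mean (median -0.076), 7 lay below and 2 above in every DZP array, and 2 were lower and 1 higher past the study's limits. These values turned on single arrays: without Ctrl array 1, 30 genes had a lower mean and 14 lay below in every DZP array (median -0.198), without DZP array 1, 24 and 14 (-0.141), and without Ctrl array 3, 21 and 11 (-0.054). Nptx2, a secreted pentraxin that gathers AMPA receptors on interneurons, had 9.03, 8.55 and 8.46 in DZP arrays and 9.42, 9.41 and 9.05 in Ctrl arrays (log2 fold change -0.62, SE 0.141, adjusted p = 0.2096). The nuclear receptor Nr4a2 had 9.30, 9.41 and 10.22 in DZP arrays and 11.02, 10.62 and 10.19 in Ctrl arrays. Array 3 of each group overlapped there, and the log2 fold change was -0.97 (SE 0.291, adjusted p = 0.3938). Fosl2, a partner of the AP-1 complex, lay below without overlap at 7.78, 7.81 and 7.74 in DZP arrays, against 8.08, 8.38 and 8.24 in Ctrl arrays (-0.46, adjusted p = 0.1639), whereas Jun, another subunit of that complex, lay above at 7.505, 8.06 and 8.20 in DZP arrays, against 7.23, 7.36 and 7.03 in Ctrl arrays (0.72, adjusted p = 0.2922). The early-response genes Arc and Fos overlapped between the groups, and Arc varied widely among the Ctrl arrays. Arc, which acts at the synapse, had 12.36, 12.58 and 12.96 in DZP arrays and 10.91, 12.02 and 13.63 in Ctrl arrays, and Fos had 7.44, 7.19 and 7.78 in DZP arrays and 7.14, 7.57 and 7.93 in Ctrl arrays.

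Astrocytes and vessels gave differences in both directions. Ednrb, the endothelin receptor of astrocytes, had 9.10, 8.98 and 9.08 in DZP arrays and 9.60, 9.63 and 9.72 in Ctrl arrays. Both groups were tight, and the log2 fold change was -0.60 (SE 0.104, adjusted p = 0.0674, limma), with 15 of 23 exon-level probe sets below in every DZP array. Dio2, the deiodinase by which astrocytes make active thyroid hormone, had 8.96, 9.05 and 8.70 in DZP arrays and 9.23, 9.70 and 9.87 in Ctrl arrays (-0.70, SE 0.148, adjusted p = 0.1616). Fabp7, a fatty acid-binding protein of astrocytes and their precursors, had 9.72, 9.20 and 9.29 in DZP arrays and 9.83, 10.04 and 9.89 in Ctrl arrays (-0.52, adjusted p = 0.5187). Of 22 astrocyte genes, 15 had a lower mean, 6 lay below in every DZP array and 0 above (median -0.045). Without DZP array 1, 11 had a lower and 11 a higher mean (median -0.005), with 6 below and 3 above. The general astrocyte markers Gja1, Slc1a3, Aldh1l1 and Gfap had log2 fold changes between -0.07 and 0.07. Gja1 lay near the array medians, at 6.18 to 6.26, and Aqp4, also a chosen marker, had no one-symbol cluster.

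Lipocalin 2 (Lcn2), a secreted carrier of iron-binding siderophores that astrocytes and endothelium make under inflammation, had the largest difference among coding genes. Its signal intensity was 7.49, 8.10 and 8.08 in DZP arrays and 6.46, 6.75 and 6.29 in Ctrl arrays. The groups were apart, with a log2 fold change of 1.39 (SE 0.315), which is 2.62-fold higher, and an adjusted p of 0.2027 by limma. At the exon level, 13 of its 20 probe sets lay above in every DZP array and 1 below. Their median log2 fold change was 2.82, with a range of -0.40 to 4.27. Serpina3n, a protease inhibitor of reactive astrocytes, had 8.62, 9.50 and 9.89 in DZP arrays and 8.63, 8.77 and 8.41 in Ctrl arrays, where DZP array 1 lay within the Ctrl range (0.73, adjusted p = 0.6193). Of 24 reactive astrocyte genes, 18 had a higher mean (median 0.068). In every DZP array 3 lay above and 0 below, against 8.71% above and 7.06% below over all one-symbol clusters. The list was dim, with a median signal of 5.83. Of its genes, 11 lay at or above the median level of all clusters. All 11 had a higher mean (median 0.276), with 3 above in every DZP array. Gfap and Vim had 0.07 and 0.10 with overlapping groups.

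P-selectin (Selp), which captures leukocytes, was higher past the study's limits but dim, with 5.23, 5.70 and 6.13 in DZP arrays and 4.91, 4.90 and 4.82 in Ctrl arrays (log2 fold change 0.81, SE 0.162, adjusted p = 0.116). The von Willebrand factor Vwf, stored in the same endothelial granules, had 7.31, 7.503 and 7.68 in DZP arrays and 7.17, 6.78 and 6.82 in Ctrl arrays (0.58, adjusted p = 0.1467), and E-selectin (Sele) had 5.25, 5.82 and 5.97 in DZP arrays and 5.14, 5.30 and 4.87 in Ctrl arrays (0.57, adjusted p = 0.3236). Only Sele overlapped among these. Of 20 genes of endothelial adhesion and clotting, 13 had a higher mean and 1 was past the limits (median 0.059, and -0.009 without DZP array 2). In every DZP array 2 lay above and 1 below, against 8.71% above and 7.06% below over all one-symbol clusters. The adhesion molecules Icam1 and Vcam1 had 0.12 and -0.07 with overlapping groups. Barrier genes of the endothelium had a median of -0.043 over 24 genes, and of 0.013 without DZP array 1. The defining endothelial markers Cldn5, Pecam1, Cdh5, Kdr and Flt1 had log2 fold changes between 0.046 and 0.231, and their mean level was 8.24 to 8.30 in DZP arrays and 8.10 to 8.17 in Ctrl arrays. The part of this level in the differences of Selp, Vwf and Sele was not tested.

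Immune genes were higher in a few members. Lyz2, the lysozyme of myeloid cells, had 7.72, 8.22 and 8.68 in DZP arrays and 7.54, 7.30 and 7.17 in Ctrl arrays (log2 fold change 0.87, SE 0.211, adjusted p = 0.258). Ccl12, a chemokine that attracts monocytes, had 5.26, 5.65 and 6.03 in DZP arrays and 4.78, 5.20 and 4.80 in Ctrl arrays (0.72, adjusted p = 0.3236). Ifitm3, a membrane protein that blocks virus entry and is induced by interferon, had 7.83, 8.37 and 8.25 in DZP arrays and 7.37, 7.48 and 7.40 in Ctrl arrays (0.73, SE 0.186, adjusted p = 0.2827), and 4 of its 5 exon-level probe sets lay above in every DZP array. Its neighbours in the family had 0.68 (Ifitm2, adjusted p = 0.4581) and 0.31 (Ifitm1, adjusted p = 0.3719), and probes of this family may bind more than 1 near-identical member. Of 30 interferon-induced genes, 19 had a higher mean with a median of 0.042, and 2 were higher past the limits. In every DZP array 5 lay above and 1 below, against 8.71% above and 7.06% below over all one-symbol clusters. At an unadjusted limma p below 0.05, 6 were higher and 0 lower, against 1019 and 976 of 30638 one-symbol clusters. Ifit1, Ifit3, Mx1, Usp18 and Irf7 were among the members that differed little, with log2 fold changes between -0.07 and 0.01. Proinflammatory cytokines and chemokines had a median of -0.004 over 24 genes, and of 0.021 with each array centred on its median. This list, which does not include Ccl12, was dim, with a median signal of 4.92 and log2 fold changes between -0.384 (Ptgs2) and 0.208 (Il1a). Only 4 of its genes lay at or above the median level of all clusters, and all 4 had a lower mean (median -0.185). The list therefore says little about genes near the background. Of 20 genes of antigen presentation and border macrophages, 16 had a higher mean, 6 lay above in every DZP array and 1 below (median 0.066), and only Lyz2 was past the limits. Lyz1, the other lysozyme, had 6.46, 6.80 and 7.06 in DZP arrays and 6.39, 6.33 and 6.33 in Ctrl arrays (log2 fold change 0.42, adjusted p = 0.4955), and the class II antigen-presenting gene H2-Ab1 had 6.67, 6.50 and 6.52 in DZP arrays and 6.38, 6.21 and 6.40 in Ctrl arrays (0.24, adjusted p = 0.4403). The 6 arrays had the same order in Lyz1 and Lyz2, and whether probes of Lyz1 also bind Lyz2 RNA was not tested. The other genes above were H2-Aa, H2-Eb1 and H2-K1, at 0.16, 0.15 and 0.18. Microglial markers Cx3cr1, P2ry12, Tmem119 and Csf1r averaged 7.48 to 7.53 in DZP arrays and 7.47 to 7.57 in Ctrl arrays, and border macrophage markers Mrc1, Cd163, Lyve1, Pf4, F13a1 and Ms4a7 averaged 5.58 to 5.72 in DZP arrays and 5.59 to 5.63 in Ctrl arrays. The neutrophil gene S100a8, past the study's limits, had 5.48, 6.999 and 6.75 in DZP arrays and 6.05, 5.67 and 5.28 in Ctrl arrays, and its partner S100a9 had 6.40, 6.96 and 7.02 in DZP arrays and 6.63, 6.39 and 6.09 in Ctrl arrays. For both, DZP array 1 lay inside the Ctrl range. The mean over 4 blood cell markers, which include both, was 5.42 to 6.01 in DZP arrays and 5.29 to 5.69 in Ctrl arrays, and the part of blood cells in the immune differences was not tested.

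Of the 13 coding genes higher past the study's limits, 12 had their lowest DZP value in array 1, and 9 separated the groups. The other members were the vasodilator peptide Adm, with 6.03, 6.55 and 7.05 in DZP arrays and 5.63, 6.02 and 5.97 in Ctrl arrays (log2 fold change 0.67, adjusted p = 0.3649), the matrix protein Mgp at 0.73 (adjusted p = 0.5474) and Depp1, a target of FOXO transcription factors, at 0.71 (adjusted p = 0.5143). Adm stood with other stress genes: Ankrd37, induced by hypoxia, had 6.66, 6.98 and 6.996 in DZP arrays and 6.39, 6.28 and 6.44 in Ctrl arrays (0.51, adjusted p = 0.1953), and Ddit3, a factor of the unfolded protein response, had 8.61, 8.70 and 8.70 in DZP arrays and 8.12, 8.36 and 8.34 in Ctrl arrays (0.40, adjusted p = 0.1831). Of 23 heat shock and stress genes, 15 had a higher mean and 4 lay above in every DZP array (median 0.044, and 0.013 without DZP array 3).

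**Figure D3:**
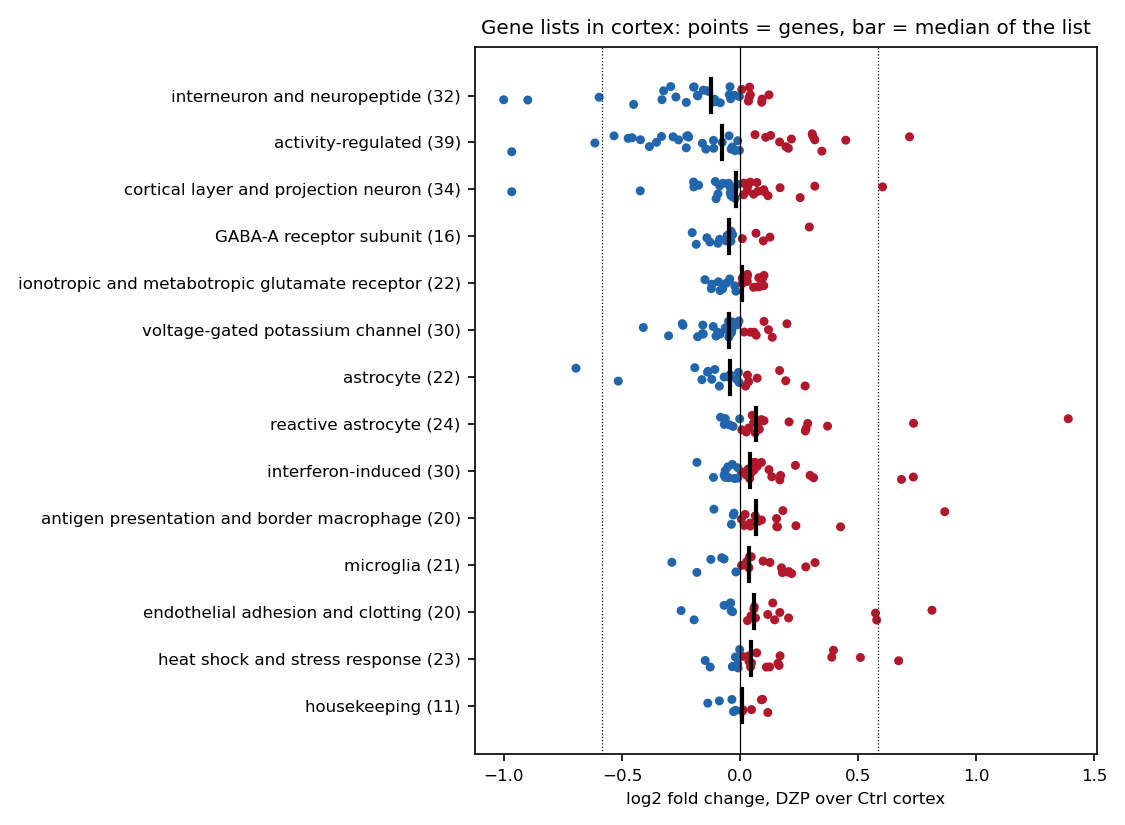
Log2 fold change of DZP over Ctrl cortex (x axis) for the genes of 14 lists (y axis, number measured in brackets), with each list's median as a black bar and the study's fold limit dotted. The interneuron list has the lowest median (-0.121), and Lcn2 at 1.39 in the reactive astrocyte list is the highest point.

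Small structural RNAs were the group with the widest difference upward. They are the snoRNAs, which guide the chemical modification of ribosomal and spliceosomal RNA, the 5S RNA of the ribosome and the U RNAs of the spliceosome. Of 73 snoRNA clusters, 67 had a higher mean in DZP, 32 lay above in every DZP array and 0 below, and 16 were past the study's limits (median 0.322). Of 94 clusters of 5S ribosomal RNA, 94 had a higher mean, 85 lay above in every DZP array and 9 were past the limits (median 0.447), but 55 of them repeat the values of another cluster. Of 35 spliceosomal and other U RNA clusters, 33 had a higher mean, 27 lay above and 5 were past the limits (median 0.381), with 11 repeats. In none of these families did a cluster pass the adjusted test. The counts past the limits turned on single arrays: the 5S count was 2 without Ctrl array 1, 4 without DZP array 1 and 12 without Ctrl array 3, and the snoRNA count was 9 without DZP array 3 and 24 without DZP array 1. Counted once per distinct set of values, 32 of 73 snoRNA, 30 of 39 5S and 20 of 27 U RNA clusters lay above in every DZP array.

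The family medians, taken as the difference from the Ctrl mean, were 0.18, 0.42 and 0.44 for snoRNA in DZP arrays 1, 2 and 3, against -0.03, -0.02 and 0.06 in Ctrl arrays. For 5S RNA they were 0.41, 0.46 and 0.44 in DZP arrays and -0.17, -0.04 and 0.17 in Ctrl arrays. For U RNA they were 0.34, 0.36 and 0.29 in DZP arrays and -0.01, -0.05 and 0.06 in Ctrl arrays. The median of each of these families was positive with any of the 6 arrays left out and under both other scalings, between 0.289 and 0.439 for snoRNA, 0.304 and 0.559 for 5S RNA and 0.273 and 0.421 for U RNA. In the hippocampus the medians of the same clusters were 0.084, 0.097 and -0.013, and in the amygdala -0.016, 0.008 and 0.012. MicroRNA clusters, 677 in number, did not share the shift (median 0.005), and the mRNAs of cytosolic ribosomal proteins had 41 of 47 clusters higher with a smaller median of 0.101 and 17 above in every DZP array.

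**Figure D4:**
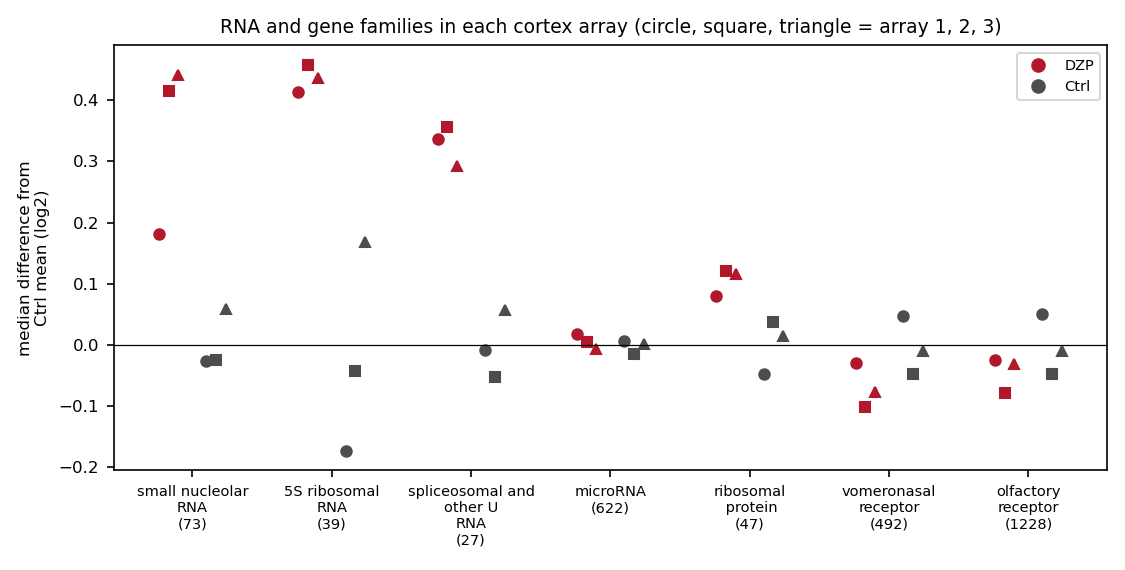
Median difference from the Ctrl mean (y axis, log2) over the distinct clusters of 7 families (x axis, number in brackets) in each DZP array (left, red) and Ctrl array (right, grey). DZP arrays lie at 0.18 to 0.46 for the 3 structural RNA families and between 0.02 and -0.01 for microRNA.

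Single members were bright enough to be read well above the array median. Snord69, a C/D box snoRNA, had 16.56, 16.91 and 16.61 in DZP arrays and 16.11, 15.48 and 15.94 in Ctrl arrays (log2 fold change 0.84, SE 0.205, adjusted p = 0.2553). Snord58b had the largest difference among them, in its brighter cluster, with 12.70, 12.82 and 12.52 in DZP arrays and 11.66, 10.90 and 11.85 in Ctrl arrays (1.21, SE 0.303, adjusted p = 0.2794). Snord82 had 12.39, 12.68 and 12.997 in DZP arrays and 11.73, 11.72 and 11.84 in Ctrl arrays (0.92, adjusted p = 0.3236). Each of these separated the groups. Snord11, Snord16a, Snord49b and Snord111 had log2 fold changes of 0.73, 0.79, 0.90 and 0.59, and the snoRNA AF357426 had 0.94, all without overlap. Among spliceosomal RNAs, Rnu5g of the U5 particle had 8.47, 8.55 and 8.43 in DZP arrays and 7.78, 7.58 and 7.77 in Ctrl arrays (0.78, adjusted p = 0.3236), and Rnu2-10 of the U2 particle had 13.96, 14.15 and 13.24 in DZP arrays and 12.63, 12.37 and 13.23 in Ctrl arrays (1.04, adjusted p = 0.4447). Malat1, another abundant nuclear RNA, had 19.04, 19.09 and 19.04 in DZP arrays and 19.03, 19.03 and 19.04 in Ctrl arrays. It was brighter than the RNAs named above, and whether its signal could still rise at that level was not tested.

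A pair of microRNA genes, Mir128-1 and Mir582, was lower past the study's limits, and 13 were without DZP array 3 and 8 without Ctrl array 2. The lowest log2 fold change, -1.49 for Mir101c, came with 5.56, 4.68 and 5.32 in DZP arrays and 9.21, 5.05 and 5.77 in Ctrl arrays, of which array 1 stood apart. The sequences of the mature arms of Mir128-1, Mir128-2 and Mir582, from RefSeq (GRCm38.p6), are shown because the arms of a microRNA from different loci can be identical, with the seed (bases 2 to 8), which pairs with target mRNAs, in capitals. Mir128-1 lies at chr1:128202361-128202430 on the plus strand, Mir128-2 at chr9:112118636-112118711 on the minus strand and Mir582 at chr13:109324744-109324824 on the plus strand.
mmu-miR-128-3p: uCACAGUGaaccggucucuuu
mmu-miR-128-1-5p: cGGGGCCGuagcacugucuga
mmu-miR-128-2-5p: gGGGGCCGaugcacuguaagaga
mmu-miR-582-5p: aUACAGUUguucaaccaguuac
mmu-miR-582-3p: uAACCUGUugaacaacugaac
The 3p arm of miR-128, which is abundant in neurons, is the same from Mir128-1 and Mir128-2. Their 5p arms differ outside the seed, which they share, and the arms of miR-582 share no seed with either.

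The Mir128-1 cluster had 11.43, 11.05 and 11.03 in DZP arrays and 12.13, 12.30 and 11.92 in Ctrl arrays. The groups were apart, with a log2 fold change of -0.95 (SE 0.167), which is 1.93-fold lower, and an adjusted p of 0.0674 by limma. Mir128-2 was dimmer and overlapped, with 6.56, 6.92 and 6.56 in DZP arrays and 7.63, 7.33 and 6.62 in Ctrl arrays (-0.51, adjusted p = 0.5968). The host genes, in whose introns these microRNAs lie, had smaller differences: R3hdm1 for Mir128-1 had 16.15, 15.83 and 15.82 in DZP arrays and 16.13, 16.20 and 16.18 in Ctrl arrays (-0.24), and Arpp21 for Mir128-2 had 12.53, 12.27 and 12.33 in DZP arrays and 12.70, 12.56 and 12.26 in Ctrl arrays (-0.14). Mir582 was dim, at 4.79, 5.14 and 4.86 in DZP arrays and 5.48, 5.53 and 5.67 in Ctrl arrays (-0.63, adjusted p = 0.258). Total RNA was labelled, and precursor and mature forms of these microRNAs were not told apart.

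The longest group of lower coding genes consisted of vomeronasal receptors, which sense pheromones in the nose and are not genes of cortical neurons. Of 494 vomeronasal clusters, 336 had a lower mean (median -0.066), and 15 were lower past the study's limits, 7 of them annotated as coding genes. In every DZP array 47 lay below and 16 above, against 7.06% below and 8.71% above over all one-symbol clusters. Vmn1r114 had 5.75, 5.03 and 4.82 in DZP arrays and 7.41, 5.80 and 6.10 in Ctrl arrays (log2 fold change -1.23, SE 0.406, adjusted p = 0.4581), and Vmn1r121 had 5.51, 4.84 and 4.78 in DZP arrays and 7.19, 5.61 and 5.75 in Ctrl arrays (-1.14, adjusted p = 0.4746). Ctrl array 1 was the highest Ctrl array in 15 of the 15 vomeronasal genes past the limits. Without Ctrl array 1, 0 vomeronasal clusters were lower past the limits, and without Ctrl array 2 there were 38. The testis genes of the sex chromosomes went the same way: Sly had 6.57, 5.88 and 5.76 in DZP arrays and 7.31, 6.09 and 7.27 in Ctrl arrays (-0.82, adjusted p = 0.6159), and the noncoding Orly had 7.41, 6.52 and 6.36 in DZP arrays and 9.08, 7.06 and 7.44 in Ctrl arrays (-1.10, adjusted p = 0.5748), with log2 fold changes between -1.17 and -0.96 in its 15 clusters. These families have many near-identical copies, so their probes may measure several members at once. Vmn1r118, Vmn1r119, Vmn1r125, Vmn1r129 and Vmn1r158 had log2 fold changes between -0.86 and -0.63, and 1700040F15Rik, Krtap4-7 and Btbd35f18 between -0.79 and -0.62.

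The count of lower clusters in general turned on single arrays. Without Ctrl array 1, the one-symbol clusters lower past the limits numbered 24 rather than 137, against 245 without Ctrl array 2, 37 without DZP array 2 and 61 without DZP array 3. Among coding genes, 8 of the 20 lower genes stayed past the limits without Ctrl array 1, which are Npy, Ednrb, Sst, Crhbp, Dio2, Nr4a2, Pde10a and Rasd1, and 10 of the 13 higher genes. Other arrays weighed as much on the coding genes: 8 lower and 8 higher genes stayed without DZP array 2, where Crhbp, Ednrb and Nptx2 were lost, and 10 lower and 6 higher genes without DZP array 3. By the methods' t-test on the 6 cortex arrays with the same limits, 6 coding genes were higher and 8 lower, and 64 one-symbol clusters were higher and 17 lower. The other lower coding genes were Pde10a, a phosphodiesterase of striatal neurons, with 9.30, 9.77 and 9.11 in DZP arrays and 10.09, 10.27 and 10.19 in Ctrl arrays (-0.79, SE 0.34, adjusted p = 0.5955), and Rasd1, a small G protein induced by glucocorticoids, at -0.63 with overlapping groups (adjusted p = 0.6205). The striatal markers Drd1, Drd2, Gpr6, Ppp1r1b, Rgs9 and Scn4b had log2 fold changes between -0.08 and 0.13.

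Promoter sequence is shown for 3 of the lower genes because the cAMP response element, the site of the activity-dependent factor CREB, was first described in the somatostatin promoter. The 120 bases before the RefSeq start site (GRCm38.p6) are given 5′ to 3′ on the gene's strand, with TGACG, the core of the element, and its reverse complement in capitals. All 3 genes are on the minus strand, with Sst at chr16:23890845-23890964, Dio2 at chr12:90739039-90739158 and Crhbp at chr13:95444832-95444951.
Sst: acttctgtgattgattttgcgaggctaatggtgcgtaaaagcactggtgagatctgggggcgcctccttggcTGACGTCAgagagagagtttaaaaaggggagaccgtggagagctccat
Dio2: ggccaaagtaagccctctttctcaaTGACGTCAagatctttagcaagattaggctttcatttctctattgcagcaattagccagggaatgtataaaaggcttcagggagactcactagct
Crhbp: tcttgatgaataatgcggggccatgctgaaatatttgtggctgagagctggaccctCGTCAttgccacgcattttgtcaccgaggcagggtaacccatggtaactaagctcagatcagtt
The full element TGACGTCA, which contains TGACG on both strands, was searched in the promoter windows of the RefSeq table, which span the start site. Promoters of one mouse chromosome were not used here. It was found for 2 of the 16 lower coding genes with a promoter in the table (Dio2 and Sst) and for 0 of the 12 higher ones, against 2.03% of 27025 genes. TGACG alone was found on either strand for 5 of the 16 lower genes (Crhbp, Dio2, Ednrb, Nr4a2 and Sst) and 0 of the 12 higher ones, against 23% of genes. Because the element was chosen from the Sst promoter, its match in Sst was known beforehand, and the counts are no independent test. The 3 sequences shown all carry TGACG, and those of Npy and Rorb, also lower, do not. An interferon response element (ISRE) was searched as well. It was found for 1 of the 16 lower genes (Sst) and 2 of the 12 higher ones (Ifitm2 and Ifitm3), against 3.99% of genes. All of these are matches of letters in a window and not sites of binding.

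In the other brain regions, whose arrays are not tied to single mice by the labels, some of these genes differed in the same direction. For Lcn2, log2 fold changes were 1.39 in cortex, 1.86 in hippocampus and 1.52 in amygdala, for Crhbp -0.60, -0.92 and -0.74, and for Sst -1.001, -0.72 and -0.50. Npy differed by -0.90, -1.36 and -0.32. Ednrb had -0.60 in cortex beside 0.02 and -0.25, Dio2 -0.70 beside -0.24 and 0.01, and Snord58b 1.21 beside -0.12 and -0.12. No cluster was called when the cortex effect was tested against the mean of the effects in hippocampus and amygdala (0 of 65956, 0% by limma, with 5181 at an unadjusted p below 0.05), so none of these differences was shown to be particular to the cortex. The contrast was 0.67 for Jun (adjusted p = 0.4677), -0.48 for Ednrb (0.3681), -0.80 for Mir128-1 (0.3664) and 1.33 for Snord58b (0.381).

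**Figure D5:**
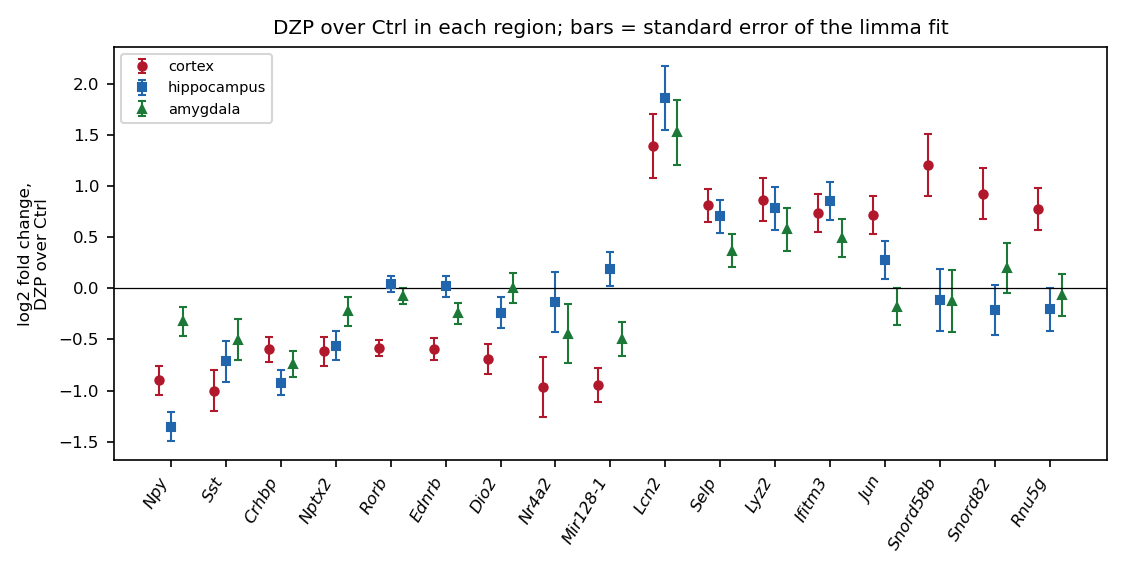
Log2 fold change of DZP over Ctrl (y axis) in cortex, hippocampus and amygdala for 17 genes (x axis), with the standard error of the limma fit as bars. Lcn2 is higher in the 3 regions, while Rorb and Snord58b lie near 0 outside the cortex.

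Genes used as controls differed little. Of 11 measured housekeeping genes, 0 passed the adjusted test or the study's limits, and the median log2 fold change was 0.009, and -0.029 after quantile normalization. Tbp, a subunit of the transcription machinery, had 8.42, 8.45 and 8.27 in DZP arrays and 8.47, 8.59 and 8.48 in Ctrl arrays, lower without overlap (-0.14), and Pgk1, a glycolytic enzyme, had 14.63, 14.77 and 14.86 in DZP arrays and 14.51, 14.66 and 14.74 in Ctrl arrays. Of 20 clock genes, 3 lay below in every DZP array (Rorb and Rora at -0.42 each and Clock at -0.20) and 2 above, with a median of 0.051 that was -0.018 without Ctrl array 1. The genes above were Arntl at 0.20 and Tef, a clock-controlled transcription factor, at 8.66, 8.83 and 8.80 in DZP arrays and 8.34, 8.44 and 8.45 in Ctrl arrays (0.35, adjusted p = 0.1814). Among calcium/calmodulin kinases, Camkv, a pseudokinase of dendritic spines, had 12.65, 12.78 and 12.91 in DZP arrays and 12.42, 12.28 and 12.37 in Ctrl arrays (0.42, SE 0.077, adjusted p = 0.0893).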

How the data were processed

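The authors deposited log2 signal intensities per transcript cluster (gene level) and per probe selection region or exon junction (exon level) of the same arrays, made with Affymetrix Expression Console 1.4.1 per the submitters' processing notes. Summarisation, normalization between arrays and genome build are not given in the sources used here. From 100 ng of total RNA per array, 6732 control probe sets were left out, and no further scaling was applied. Symbols came from the array annotation, with 330 updated through RefSeq (30636 of 30638 clusters matched). A gene with several clusters (427) was represented by the brightest one over all 18 arrays.

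A limma 3.58.1 model (R 4.3.3) with 6 groups of 3 arrays was fitted to all 18 arrays, so spread in hippocampus and amygdala enters each standard error. DZP cortex was compared with Ctrl cortex, with Benjamini-Hochberg adjustment over all 65956 clusters. The fit was tested on simulated data. The 3 arrays of a group stand for 3 mice, and their number limits the precision. At this size permutation cannot reach the threshold, so none was run. Named genes were called clusters, coding genes past the study's limits, up to 10 noncoding genes in each direction, the 3 list members with the largest change, and GABA-A subunit, benzodiazepine-binding and housekeeping genes. Other genes were named after their values were seen. The members and lists were chosen with earlier results of these data known. Alternatives were array weights, other scalings, a brightness filter, replicate and random blocks, the methods' t-test and each array left out.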

Additional observations from a re-analysis of the deposited data

How the results depend on the processing

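With 3 arrays a group, counts of calls moved with most settings. Called clusters, 4 higher and 20 lower in DZP cortex, numbered 17 and 57 with array weights, 1 and 5 with each array centred on its median, 7 and 35 when clusters below the median level were left out, 0 and 0 with the 6 cortex arrays alone, and 1 and 0 by the methods' t-test after Benjamini-Hochberg adjustment. With a single cortex array left out, 0 to 8 were called higher and 1 to 30 lower. The one-symbol clusters past the study's limits, 87 higher and 137 lower, numbered 70 to 116 and 24 to 245 with a single array left out. The lower count was 87 with the cortex arrays alone and 17 by the methods' t-test. The test of the cortex effect against the other regions called 0 to 2 clusters with a single array left out and 0 under every other alternative run for it.

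The labels do not state that replicate numbers pair the samples. Deviations of DZP and Ctrl arrays with the same number correlated with r of 0.251, 0.268 and -0.017. Arrays of different numbers were not compared, so these values cannot decide whether a pairing exists. With the replicate block in all 18 arrays, 5 clusters were called higher and 22 lower, and with the replicate block in the cortex arrays alone, 0 and 55. The alternatives were run for the 47 clusters that were called or were coding or noncoding genes past the limits, and none of these changed direction. Other named genes were not run one by one. The calls of Npy and Rorb held in 6 of 15 and 9 of 16 alternatives. Median shifts of all clusters under other scalings were 0.02 or less.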
